A study of Mus musculus with 42 samples.

Results

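Microglia from the hippocampus of 5xFAD mice that had been raised germ-free and then given acetate (GFA) were set against microglia from the hippocampus of 5xFAD mice kept under specific pathogen-free conditions (SPF). The libraries were chosen by their labels: 4 GFA 5xFAD mice (GFA_FAD_519, GFA_FAD_520, GFA_FAD_521 and GFA_FAD_522) and 4 SPF 5xFAD mice (SPF_FAD_2140, SPF_FAD_2142, SPF_FAD_2152 and SPF_FAD_2153), which are 8 of the 42 libraries of the series and 8 of its 22 hippocampus libraries. All 8 mice were 16 weeks old and on a C57BL/6 background, with no substrain given. The labels name acetate groups of 4 and 8 weeks and give 8 weeks for the one that holds WT and 5xFAD mice, so the GFA mice were taken as the 8-week group; the SPF mice had a microbiota and no acetate, so microbiota and acetate differ together between these groups and cannot be told apart in this comparison. Germ-free 5xFAD mice without acetate (GF; GF_FAD_526, GF_FAD_527 and GF_FAD_531) are given beside them where acetate alone is the question, and wild-type (WT) GFA mice and WT SPF mice, 4 of each, where the question is whether a difference needs the 5xFAD genotype. WT GF mice (GF_WT_529, GF_WT_530 and GF_WT_532), also without acetate, are in the joint fit and in the figures. The mice of all 22 hippocampus libraries were 16 weeks old. In every group CD11b+CD45lo cells were sorted by flow cytometry after a density gradient, and RNA-seq reads were counted per gene.

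The 5xFAD mouse carries human transgenes with familial Alzheimer's disease mutations under the neuronal Thy1 promoter, so amyloid is made by neurons and microglia respond to it. Microglia around plaques switch on a set of lipid, lysosome and phagocytosis genes (Apoe, Cst7, Clec7a, Itgax, Lpl and others), a change that needs the receptor Trem2, and lower genes of resting microglia such as P2ry12. Acetate is a short-chain fatty acid made by gut bacteria from fibre; cells turn it into acetyl-CoA with the synthetases Acss1 and Acss2, which feeds the citrate cycle and histone acetylation. Without a microbiota, microglia are known to keep immature features, and acetate is one bacterial product that has been tested as a replacement.

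Library depth ran between 18758109 and 19959648 counts in GFA 5xFAD mice and between 5743891 (SPF_FAD_2142) and 20775022 (SPF_FAD_2153) in SPF 5xFAD mice. All 10 microglia markers were detected in every library, at a mean log2(CPM + 1) of 11.50 to 11.62 in GFA 5xFAD mice and 11.23 to 11.68 in SPF 5xFAD mice, where CPM is the count per 1000000 counts of a library, scaled between libraries by the trimmed mean of M-values (TMM). The SPF libraries stood apart from each other in 3 ways. Library SPF_FAD_2152 was near WT on the plaque-response genes: 28 of 40 lay within the range of the 4 WT SPF libraries, against 0 of 40 in each of the other 3 SPF 5xFAD libraries and 0 to 3 of 40 in the GFA 5xFAD libraries. This library had been set apart beforehand for values near WT on these genes, so the count restates that choice. Libraries SPF_FAD_2140 and SPF_FAD_2142 were high on chaperone genes. Library SPF_FAD_2153 was high on neutrophil markers, at a mean log2(CPM + 1) of 3.30 over 14 genes, against 0.68 to 0.80 in GFA 5xFAD mice and 0.67 to 0.69 in the other SPF 5xFAD mice. Mouse App, whose count could pick up reads of the human transgene, did not tell SPF_FAD_2152 from its group, at 190, 192, 255 and 209 CPM in GFA 5xFAD mice and 199, 218, 191 and 219 CPM in SPF 5xFAD mice; WT GFA mice, at 164 to 218 CPM, overlapped both. Values are given with SPF_FAD_2152, and values without it stand beside many of them. Nothing beyond the labels says how the mice relate, so p-values measure the spread between these samples, and in sorted bulk RNA fewer cells in a given state and less RNA per cell cannot be told apart.

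Between GFA and SPF 5xFAD mice 9 genes differed at an adjusted p under 0.05, 8 higher and 1 lower, which is 0.0527% of the 17063 genes tested (0.0469% higher and 0.00586% lower; edgeR quasi-likelihood test, Benjamini-Hochberg adjustment over all genes tested). The 8 higher genes were Ugt1a8, Gpr137b, Arl4c, Glrp1, Gm4742, Tmem181c-ps, Tmem181b-ps and Serpine2, and the lower gene was Stk25. At an unadjusted p under 0.05 there were 1147 genes, 6.72% of those tested (3.4% higher and 3.32% lower). Without SPF_FAD_2152 the count was again 9, 6 higher and 3 lower (0.053% of 16993 genes; 0.0353% higher and 0.0177% lower), and 6 of the 9 genes were in both sets: Ugt1a8, Gpr137b, Stk25, Gm4742, Glrp1 and Arl4c. The remaining 3 without SPF_FAD_2152 were Notch4 (higher), P4ha1 (lower) and Hsp90ab1 (lower). Ugt1a8 was the 1 gene left when GFA_FAD_519 or SPF_FAD_2140 was taken out, or SPF_FAD_2140 and SPF_FAD_2142 together; DESeq2 called 94 genes (0.576%) and limma voom 22 (0.129%), each with all 9 among them.

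Ugt1a8 showed the clearest separation. It encodes a UDP-glucuronosyltransferase, an enzyme that attaches glucuronic acid to lipid-soluble compounds, and belongs to the Ugt1a cluster, in which each gene has its own promoter and first exon and all share the later exons. The sequence just before its start is shown with that of Ugt1a7c, the next gene of the cluster, because one of the pair was called and the other was not. Both windows are the 250 bases before the RefSeq start on the plus strand of GRCm38.p6, chr1:88087578-88087827 for Ugt1a8 and chr1:88094751-88095000 for Ugt1a7c, and capitals mark runs of at least 10 bases that both windows hold.
Ugt1a8: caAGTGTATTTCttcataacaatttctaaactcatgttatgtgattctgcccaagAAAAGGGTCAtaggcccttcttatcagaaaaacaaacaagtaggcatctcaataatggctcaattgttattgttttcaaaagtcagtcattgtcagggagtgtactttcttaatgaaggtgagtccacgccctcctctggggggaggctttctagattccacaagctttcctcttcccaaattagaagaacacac
Ugt1a7c: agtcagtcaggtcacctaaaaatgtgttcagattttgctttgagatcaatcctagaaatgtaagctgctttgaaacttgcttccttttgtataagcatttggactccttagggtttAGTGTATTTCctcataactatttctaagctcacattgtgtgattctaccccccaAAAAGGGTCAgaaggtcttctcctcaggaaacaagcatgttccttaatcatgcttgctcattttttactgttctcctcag
The shared runs come to 20 bases of 250 in each window. Shorter and imperfect matches, some of which lie between the marked runs, are not counted, so this is no measure of how alike the windows are.

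Ugt1a8 stood at 4.00, 2.27, 2.13 and 1.87 CPM in the 4 GFA 5xFAD libraries, against 0 counts in all 4 SPF 5xFAD libraries. The groups did not overlap, and GF 5xFAD mice, at 2.25, 5.64 and 3.97 CPM, were on the GFA side. Against a floor of 3 counts per library this was at least 10.2-fold higher in GFA mice, with an adjusted p of 0.00058. WT mice showed the same separation, at 3.46, 4.69, 4.61 and 4.51 CPM in GFA mice and 0 in all 4 SPF mice, at least 17.7-fold higher with an adjusted p of 0.00015. Ugt1a7c, by contrast, was at 49.2, 59.0, 71.6 and 68.2 CPM in GFA 5xFAD mice and 55.9, 56.8, 71.8 and 74.0 CPM in SPF 5xFAD mice, a log2 difference of -0.06 ± 0.14 (SE). Ugt1a9, another member of the cluster, had 73 counts in the GFA 5xFAD libraries and 1 in the SPF 5xFAD libraries, a ratio of 61.1 (95% interval for counting error 10.6 to 2444), with an adjusted p of 0.12. Since the Ugt1a genes overlap, how the counting shared reads of the later exons between them is uncertain.

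Gpr137b encodes a membrane protein of the lysosome. It was at 133, 142, 99.7 and 144 CPM in GFA 5xFAD mice, against 49.0, 57.1, 62.4 and 57.6 CPM in SPF 5xFAD mice. Every GFA library was above every SPF library. The fold was 2.30 (log2 1.20 ± 0.18, adjusted p = 0.0105), and the log2 difference was 1.25 without SPF_FAD_2152 (adjusted p = 0.021). Its near-identical copy Gpr137b-ps ran the other way without passing the test, at 7.73, 9.19, 44.7 and 11.1 CPM in GFA 5xFAD mice and 77.0, 64.6, 72.5 and 74.6 CPM in SPF 5xFAD mice (log2 -1.99, adjusted p = 0.47). GF 5xFAD mice were spread, at 51.6, 97.7 and 102 CPM for Gpr137b and 77.0, 40.8 and 7.22 CPM for the copy. The level of each single copy is uncertain, because counting can split reads between near-identical copies.

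Arl4c, an Arf-like small GTPase of membrane traffic, was at 183, 123, 111 and 116 CPM in GFA 5xFAD mice and 53.7, 77.2, 61.7 and 72.1 CPM in SPF 5xFAD mice. The groups did not overlap and the fold was 2.02 (log2 1.02 ± 0.16, adjusted p = 0.0156; 0.042 without SPF_FAD_2152). Glrp1 was at 70.2, 39.7, 43.4 and 33.9 CPM in GFA 5xFAD mice and 16.4, 17.9, 20.01 and 16.8 CPM in SPF 5xFAD mice. It differed 2.63-fold with no overlap (log2 1.40 ± 0.24, adjusted p = 0.0171; 0.034 without SPF_FAD_2152). Stk25, a serine/threonine kinase of the germinal-centre kinase family, was at 79.8, 62.9, 68.4 and 63.9 CPM in GFA 5xFAD mice and 153, 145, 122 and 143 CPM in SPF 5xFAD mice. It was the single gene that fell, by 1.03 ± 0.18 on the log2 scale (adjusted p = 0.0171; 0.021 without SPF_FAD_2152), and again without overlap.

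Serpine2 encodes a secreted inhibitor of serine proteases (protease nexin-1) and was the called gene that belongs to the plaque-response list. It was at 2033, 1707, 1639 and 2282 CPM in GFA 5xFAD mice, against 1170, 1413, 841 and 1299 CPM in SPF 5xFAD mice. The lowest value was that of SPF_FAD_2152, and the groups did not overlap with or without it. The group means were 1915 ± 299 CPM in GFA mice and 1181 ± 247 CPM in SPF mice (SD, n = 4 each), a 1.62-fold difference (log2 0.70 ± 0.13, adjusted p = 0.0438). Without SPF_FAD_2152 the log2 difference was 0.57 ± 0.12 and the adjusted p was 0.058. The call was also lost with all libraries under another scaling (RLE size factors, log2 0.69, adjusted p = 0.055), and in 10 of 18 settings in all, with log2 differences between 0.55 and 0.84 throughout. In WT mice, which carry no transgene, Serpine2 also differed, at 1448, 1369, 1448 and 1587 CPM in GFA mice and 929, 898, 890 and 867 CPM in SPF mice (log2 0.71, adjusted p = 0.022).

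The remaining called features have low levels or are pseudogenes by name, and were named after their values were seen. Gm4742 was at 1.70, 1.65, 2.13 and 1.82 CPM in GFA 5xFAD mice and 0.0524, 0, 0.113 and 0 CPM in SPF 5xFAD mice. That is 138 counts against 3, a ratio of 38.5 (95% interval for counting error 12.9 to 189), with an adjusted p of 0.0171. Tmem181b-ps was at 16.2, 12.3, 20.7 and 18.6 CPM in GFA 5xFAD mice and 7.91, 8.34, 5.04 and 7.19 CPM in SPF 5xFAD mice (2.39-fold, adjusted p = 0.0316; 0.066 without SPF_FAD_2152). Tmem181c-ps had 1.04, 0.620, 1.61 and 0.427 CPM in GFA 5xFAD mice and no count in the SPF 5xFAD libraries, at least 3.69-fold higher (adjusted p = 0.028; 0.054 without SPF_FAD_2152). Neither of these pseudogenes overlapped between the groups, and how reads were shared with their parent gene family is uncertain.

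**Figure D1:**
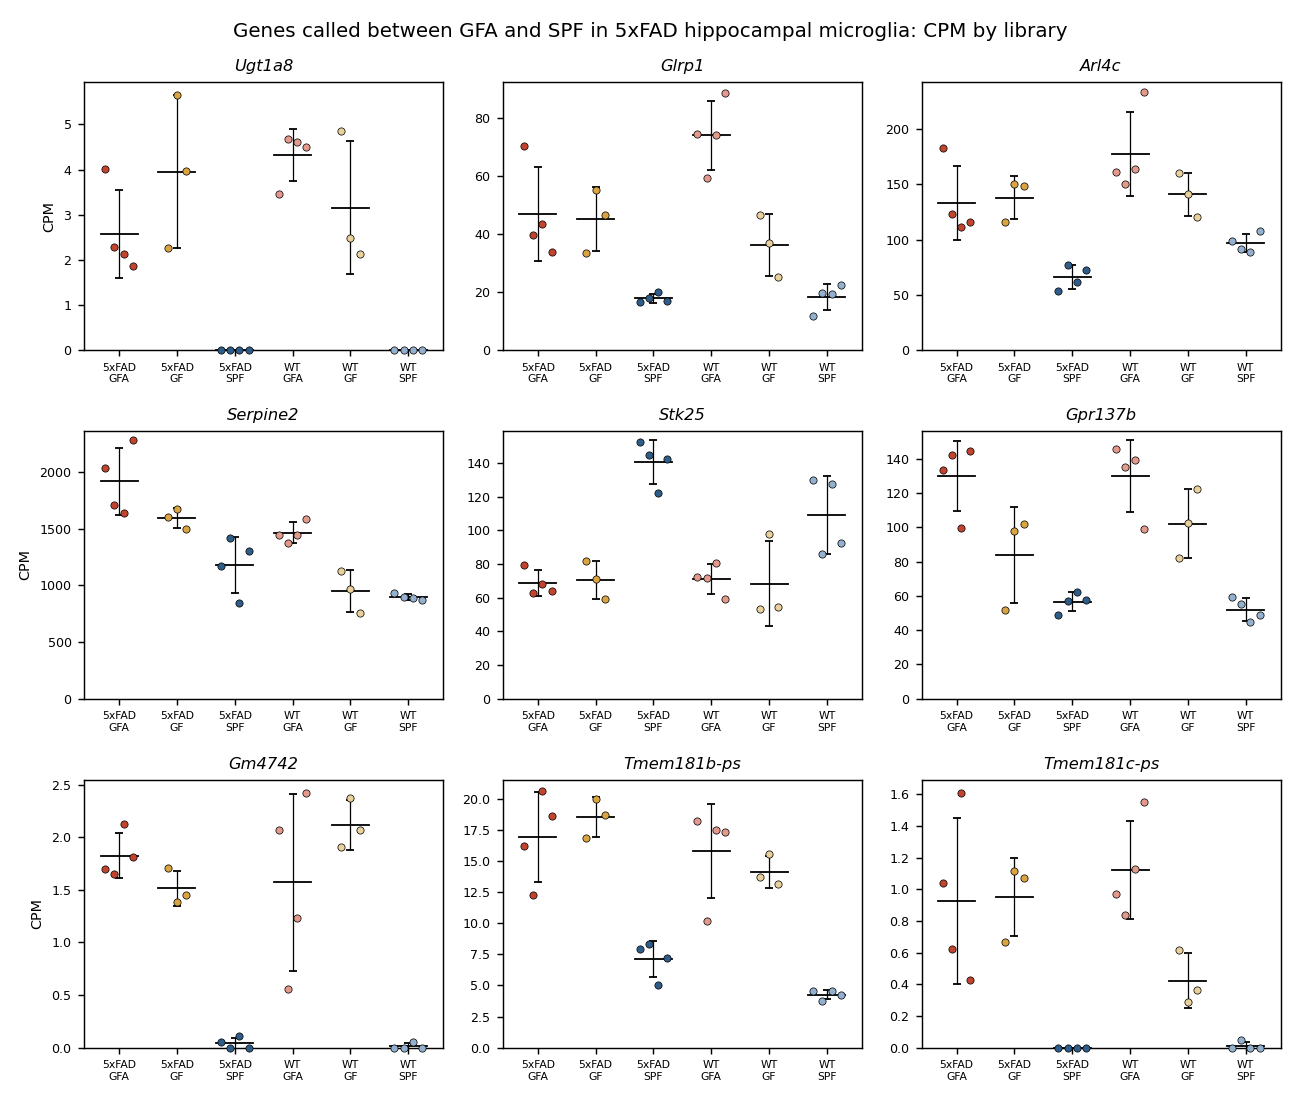
The 9 genes called between GFA and SPF 5xFAD mice, in CPM (linear axis) for each hippocampus library, with 5xFAD GFA, GF and SPF mice at the left and WT GFA, GF and SPF mice at the right; points are libraries, bars the mean and SD. Ugt1a8 and Tmem181c-ps were at 0 in all 4 SPF 5xFAD libraries, and Stk25 was the 1 gene with lower values in GFA mice.

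The separation of the called genes was present in WT mice as well. The WT libraries are other animals, so this comparison shares no library with the 5xFAD one; it was chosen after earlier results of these data were known. Between WT GFA and WT SPF mice 21 genes were called (0.123% of genes tested), and 8 of the 9 genes called in 5xFAD mice were among them in the same direction. Stk25 was the exception, at 72.6, 72.0, 80.4 and 59.4 CPM in WT GFA mice and 130, 86.2, 128 and 92.4 CPM in WT SPF mice. There the groups did not overlap either, and the log2 difference was -0.62 (adjusted p = 0.28). The difference between the 5xFAD and WT effects was itself tested by an interaction term, and no gene passed (0% of 17063; 1124 genes, 6.59%, at an unadjusted p under 0.05; 25 by DESeq2, 0.44% of the genes it gave an adjusted p, and 0 by limma voom). For Stk25 the interaction was -0.41 ± 0.25 on the log2 scale (adjusted p = 0.84), and for Serpine2 it was -0.01 ± 0.19 (adjusted p = 1).

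GF 5xFAD mice, which had no acetate, were on the GFA side for most of these genes. Of the 9 genes, 7 were also called between GF and SPF 5xFAD mice, a comparison that uses the same SPF libraries and calls 311 genes (1.82%). The exceptions were Gpr137b (log2 0.57, adjusted p = 0.18) and Serpine2 (log2 0.43, adjusted p = 0.15). None of the 9 was called between GFA and GF 5xFAD mice. Arl4c, for instance, was at 116, 150 and 149 CPM in GF mice, within the range of GFA mice, and Stk25 was at 81.8, 70.9 and 59.4 CPM.

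Of the 9 genes, 5 lie on chromosome 1, which holds 6.71% of the tested genes with a position in GENCODE M21 (97.1% of genes matched). In gene order they are Serpine2, then Ugt1a8 after 70 other tested genes, Glrp1 after 12, Arl4c after 2 and Stk25 after 42. Over the 131 tested genes of that stretch, 21 (16.0%) had an unadjusted p under 0.05 in 5xFAD mice, against 6.42% of the 981 other tested genes of the chromosome. In WT mice the share was also 21 genes (16.0%), with 6 called, against 9.17% elsewhere on the chromosome and 8.03% of all genes tested. Tmem181b-ps and Tmem181c-ps are 1 tested gene apart on chromosome 17, Gpr137b is on chromosome 13 and Gm4742 on chromosome 14. The stretch was marked out after the called genes were seen, so these shares are descriptions.

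Nnt, the mitochondrial transhydrogenase gene that is partly deleted in the C57BL/6J substrain, was at 106, 93.4, 112 and 110 CPM in GFA 5xFAD mice and 67.7, 49.9, 71.8 and 69.2 CPM in SPF 5xFAD mice. The groups did not overlap, with a log2 difference of 0.70 ± 0.16 and an adjusted p of 0.13. In WT mice it was at 95.4, 94.2, 104 and 94.0 CPM in GFA mice and 71.6, 38.2, 44.8 and 43.1 CPM in SPF mice, and this difference passed the test (log2 0.97, adjusted p = 0.0047). A further list held 18 genes picked because they set germ-free mice apart from SPF mice in cortex or whole brain libraries of this series. Of these 3 were higher here (Gpr137b, Glrp1 and Tmem181b-ps) and 0 lower, beside 0.0469% higher and 0.00586% lower over all genes tested. Another of them, Ero1b, an endoplasmic reticulum oxidase, was at 8.28, 7.90, 20.4 and 10.1 CPM in GFA 5xFAD mice and 45.2, 56.3, 34.4 and 32.5 CPM in SPF 5xFAD mice, with no overlap (log2 -1.84 ± 0.40, adjusted p = 0.12). This list was chosen on other libraries of this series and is no independent evidence. The labels give no substrain, and the part of substrain in these differences was not tested.

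The plaque-response genes were high in both groups, and how far apart the groups stood depended on SPF_FAD_2152. Of 40 genes in the list 1 was higher in GFA mice (Serpine2) and 0 lower, beside 0.0469% higher and 0.00586% lower over all genes tested. Their median log2 difference was 0.30, beside 0.01 over all genes tested, with 39 of 40 values above 0; without SPF_FAD_2152 it was 0.13, with 32 of 40 above 0 and 0 called. The mean log2(CPM + 1) over the list was 8.40, 8.48, 8.19 and 8.70 in the GFA 5xFAD libraries, against 8.05 (SPF_FAD_2140), 8.48 (SPF_FAD_2142), 6.62 (SPF_FAD_2152) and 8.23 (SPF_FAD_2153) in the SPF 5xFAD libraries. Library SPF_FAD_2152 thus lay within the range of WT SPF mice (6.40 to 6.65), SPF_FAD_2140 just under the GFA range, and SPF_FAD_2142 and SPF_FAD_2153 within it. By gene, SPF_FAD_2152 was below all 4 GFA libraries for 38 of 40 genes. The same held for 18 of 40 genes in SPF_FAD_2140, 8 in SPF_FAD_2142 and 17 in SPF_FAD_2153, while 13 of 40 were above all 4 GFA libraries in SPF_FAD_2142. Shares over all genes tested were not taken for these counts by library, so they are descriptions. SPF_FAD_2152 was set apart beforehand for values near WT on plaque-response genes, so its low values here are no separate evidence.

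Apoe, the main lipid carrier of glia, was at 5574, 6831, 4350 and 7484 CPM in GFA 5xFAD mice and 4224, 6309, 442 and 3173 CPM in SPF 5xFAD mice. The value of 442 is that of SPF_FAD_2152, and the other SPF libraries reached into the GFA range. The log2 difference was 0.78 ± 0.45 (adjusted p = 0.86), and 0.41 without SPF_FAD_2152 (adjusted p = 0.82). Cst7, an inhibitor of lysosomal cysteine proteases, was at 628, 589, 468 and 791 CPM in GFA 5xFAD mice and 376, 513, 13.3 and 468 CPM in SPF 5xFAD mice. Here SPF_FAD_2152 was again far below its group, in the range of WT SPF mice, and the log2 difference of 0.86 ± 0.56 (adjusted p = 0.91) was 0.45 without it. Clec7a, the beta-glucan receptor dectin-1, was at 202, 164, 134 and 309 CPM in GFA 5xFAD mice and 149, 191, 24.1 and 201 CPM in SPF 5xFAD mice. Itgax, the integrin CD11c, was at 59.4, 63.4, 40.7 and 76.9 CPM in GFA 5xFAD mice and 47.1, 59.6, 9.12 and 50.2 CPM in SPF 5xFAD mice. Both overlapped, with log2 differences of 0.52 and 0.54 that became 0.17 and 0.20 without SPF_FAD_2152. Spp1, the matrix protein osteopontin, was at 22.3, 18.2, 46.1 and 34.2 CPM in GFA 5xFAD mice and 24.9, 49.7, 3.17 and 23.86 CPM in SPF 5xFAD mice. The groups overlapped, and the log2 difference of 0.26 turned to -0.11 without SPF_FAD_2152.

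In the list 7 of the 40 genes did not overlap between the groups, all higher in GFA mice; over all genes tested 2.56% were higher and 2.37% lower without overlap. Without SPF_FAD_2152 the list again had 7, beside 5.17% higher and 4.06% lower over all genes. Igf1, a growth factor made by plaque-associated microglia, was at 65.9, 90.8, 63.5 and 87.0 CPM in GFA 5xFAD mice and 36.7, 51.6, 3.97 and 53.0 CPM in SPF 5xFAD mice. All 4 SPF values were below the GFA range, SPF_FAD_2152 by far, and the log2 difference was 1.09 ± 0.61 (adjusted p = 0.83), and 0.71 without SPF_FAD_2152 (adjusted p = 0.89). Axl, a receptor that binds dying cells and plaques through a bridging ligand, was at 233, 275, 295 and 361 CPM in GFA 5xFAD mice and 215, 215, 16.6 and 201 CPM in SPF 5xFAD mice. The log2 difference was 0.85 ± 0.47 (adjusted p = 0.83), and 0.47 without SPF_FAD_2152 (adjusted p = 0.77). Gusb, a lysosomal glucuronidase, was at 741, 733, 706 and 731 CPM in GFA 5xFAD mice and 573, 552, 380 and 608 CPM in SPF 5xFAD mice. It had the narrowest GFA range of these genes and did not overlap even without SPF_FAD_2152 (log2 0.46 ± 0.12, adjusted p = 0.19; 0.33 without SPF_FAD_2152, adjusted p = 0.26). Ank, a phosphate and citrate exporter, was at 323, 305, 308 and 405 CPM in GFA 5xFAD mice and 172, 207, 63.3 and 283 CPM in SPF 5xFAD mice (log2 0.89 ± 0.26, adjusted p = 0.31; 0.60 and 0.25 without SPF_FAD_2152). None of these 4 genes passed the test.

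**Figure D2:**
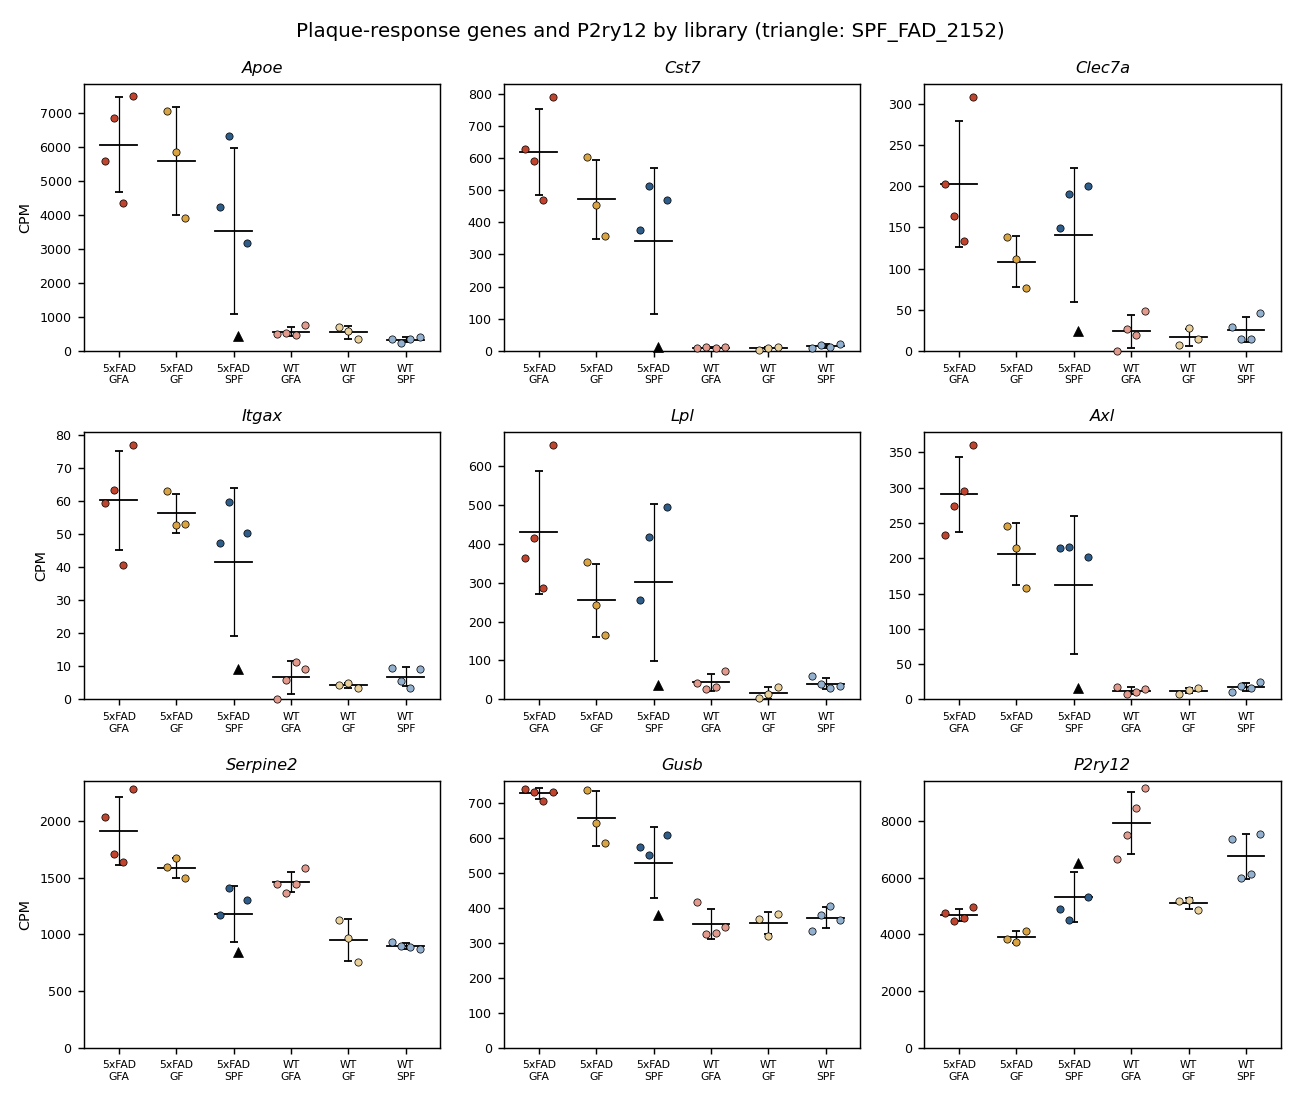
Plaque-response genes and the resting-state gene P2ry12, in CPM (linear axis) for each hippocampus library, 5xFAD GFA, GF and SPF mice at the left and WT GFA, GF and SPF mice at the right; points are libraries, bars the mean and SD, and the triangle is library SPF_FAD_2152. The triangle lies with the WT libraries for Apoe, Cst7, Clec7a, Itgax, Lpl, Axl and Gusb, and above the other 5xFAD libraries for P2ry12.

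Genes of resting microglia hardly shifted as a list. Of 23 homeostatic genes 0 were called, beside 0.0527% of all genes tested, and their median log2 difference was 0.01 (0.05 without SPF_FAD_2152). Without overlap 1 was higher and 0 lower, beside 2.56% and 2.37% over all genes tested. With SPF_FAD_2152 left out 3 were higher and 0 lower, beside 5.17% and 4.06%. P2ry12, the purine receptor of resting microglia, was at 4745, 4486, 4587 and 4966 CPM in GFA 5xFAD mice and 4912, 4501, 6532 and 5337 CPM in SPF 5xFAD mice, with SPF_FAD_2152 the highest (log2 -0.18, adjusted p = 0.86). Tmem119, a microglial surface protein, was at 3274, 3012, 2957 and 2538 CPM in GFA 5xFAD mice and 2975, 2573, 3438 and 2652 CPM in SPF 5xFAD mice. The groups overlapped throughout. Fcrls, a scavenger receptor of microglia, was at 2800, 2464, 2270 and 2535 CPM in GFA 5xFAD mice and 1755, 759, 2181 and 2002 CPM in SPF 5xFAD mice. It was lowest in SPF_FAD_2142, the shallowest library, and did not overlap (log2 0.59 ± 0.19, adjusted p = 0.38). Trem2, the receptor that the plaque response depends on, was at 2197, 2070, 1577 and 1934 CPM in GFA 5xFAD mice and 1788, 2057, 1452 and 1891 CPM in SPF 5xFAD mice (log2 0.11, adjusted p = 0.98). The 15 tested genes of Trem2 and Tyrobp signalling had 0 calls and a median of 0.23 (0.12 without SPF_FAD_2152); the lowest p-values were those of Plcg2 (log2 0.29 ± 0.13, adjusted p = 0.62), Inpp5d (0.28 ± 0.13, 0.66) and Pik3cg (0.35 ± 0.17, 0.75).

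The respiratory chain, the citrate cycle and acetate use gave no called gene. Complex II, succinate dehydrogenase, links the citrate cycle to the respiratory chain. Sdha, its flavoprotein, was at 265, 213, 286 and 287 CPM in GFA 5xFAD mice and 258, 267, 226 and 232 CPM in SPF 5xFAD mice. The groups overlapped, and the log2 difference was 0.10 ± 0.11 (adjusted p = 0.99). Sdhb (0.10), Sdhc (0.06) and Sdhd (-0.00) were as near to 0, and all 8 subunits and assembly factors had a median of -0.09 (-0.01 without SPF_FAD_2152), with Sdhaf3 at -0.49 ± 0.25. Median log2 differences were 0.07 for 36 nuclear subunits of complex I (0.01 without SPF_FAD_2152), 0.09 for 34 of complexes III to V (0.03), 0.17 for 10 genes encoded in mitochondrial DNA (0.07), 0.06 for 31 of the citrate cycle and pyruvate entry (0.06) and 0.02 for 26 of glycolysis (-0.03). Dld, the shared E3 subunit of pyruvate and oxoglutarate dehydrogenase, was at a log2 difference of 0.41 ± 0.13 (adjusted p = 0.35). Ldhb, the lactate dehydrogenase subunit that favours pyruvate formation, was at 406, 375, 354 and 364 CPM in GFA 5xFAD mice and 294, 300, 322 and 326 CPM in SPF 5xFAD mice, with no overlap (0.27 ± 0.09, adjusted p = 0.37).

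Acss1, the mitochondrial acetyl-CoA synthetase, was at 127, 111, 180 and 145 CPM in GFA 5xFAD mice and 123, 112, 146 and 168 CPM in SPF 5xFAD mice. Acss2, the nuclear and cytosolic form, was low, at 14.1, 11.7, 8.93 and 4.97 CPM in GFA 5xFAD mice and 4.40, 8.52, 9.35 and 7.23 CPM in SPF 5xFAD mice. Both overlapped, with log2 differences of 0.04 and 0.43 ± 0.54. Acly, which makes acetyl-CoA from citrate, was at 269, 240, 269 and 255 CPM in GFA 5xFAD mice and 238, 179, 224 and 233 CPM in SPF 5xFAD mice, with no overlap (0.24 ± 0.13, adjusted p = 0.80). The 13 acetate genes had a median of 0.06 (0.11 without SPF_FAD_2152), and 28 writers, erasers and readers of histone acetylation had a median of 0.01 (-0.01), with Kat8, an acetyltransferase of histone H4, at -0.43 ± 0.15 (adjusted p = 0.46).

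Immune genes gave no call either, and the sign of the interferon list changed with SPF_FAD_2152. The 33 type I interferon genes had a median log2 difference of 0.22, and -0.07 without SPF_FAD_2152. Their mean log2(CPM + 1) was 4.47, 4.52, 5.52 and 4.93 in GFA 5xFAD mice and 5.62, 4.70, 3.10 and 4.50 in SPF 5xFAD mice, so single libraries of either group were high (GFA_FAD_521 and SPF_FAD_2140) and SPF_FAD_2152 was the lowest. Oasl2, an antiviral response gene, was at 46.8, 46.9, 113 and 61.7 CPM in GFA 5xFAD mice and 84.2, 34.8, 5.78 and 42.8 CPM in SPF 5xFAD mice (0.68 ± 0.56, adjusted p = 0.96; 0.31 without SPF_FAD_2152). The 18 genes of MHC class I presentation had a median of 0.19 (0.02 without SPF_FAD_2152) and the 11 of MHC class II a median of 0.18 (0.11). H2-DMb2, a chain of the peptide-loading factor of class II, was at 15.5, 18.4, 14.2 and 15.1 CPM in GFA 5xFAD mice and 6.50, 5.32, 9.12 and 8.48 CPM in SPF 5xFAD mice. It was separated from SPF mice in every library (1.09 ± 0.26, adjusted p = 0.15; 1.20 and 0.10 without SPF_FAD_2152).

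Cytokine, chemokine and NF-kB genes had a median log2 difference of -0.16 with and without SPF_FAD_2152 over 38 genes, and 0 called. Ccl12, a monocyte attractant, was at 76.8, 56.6, 65.1 and 95.1 CPM in GFA 5xFAD mice and 232, 358, 68.9 and 78.1 CPM in SPF 5xFAD mice. Socs3, a feedback inhibitor of cytokine receptors, was at 40.6, 43.5, 39.6 and 25.6 CPM in GFA 5xFAD mice and 92.3, 186, 39.7 and 36.7 CPM in SPF 5xFAD mice. In both the high SPF values were those of SPF_FAD_2140 and SPF_FAD_2142, and SPF_FAD_2152 and SPF_FAD_2153 lay with GFA mice; the log2 differences were -1.32 ± 0.39 and -1.23 ± 0.37 (adjusted p = 0.31 for each), and -0.00 and -0.03 without SPF_FAD_2140 and SPF_FAD_2142. The 15 complement genes had a median of -0.01 (-0.08 without SPF_FAD_2152), with the C5a receptor C5ar1 at -0.47 ± 0.20 (adjusted p = 0.62). Among 40 genes of phagocytosis and the lysosome the median was 0.10 (0.05 without SPF_FAD_2152). Grn, which encodes the lysosomal protein progranulin, was at 3237, 3059, 3022 and 3083 CPM in GFA 5xFAD mice and 2669, 2637, 2217 and 2449 CPM in SPF 5xFAD mice, without overlap (0.31 ± 0.09, adjusted p = 0.25).

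Amyloid-processing and lipid genes had 0 called. Groups without overlap were found for 3 of 13 amyloid-processing genes (2 higher, 1 lower), 5 of 23 genes of cholesterol export and lipid handling (3 higher, 2 lower) and 1 of 23 sterol synthesis genes (higher), beside 2.56% higher and 2.37% lower over all genes tested. The amyloid-processing genes had a median log2 difference of 0.11 (0.12 without SPF_FAD_2152), with 9 of 13 above 0. Ide, the insulin-degrading enzyme that also cleaves amyloid-beta, was at 64.3, 78.0, 69.2 and 88.0 CPM in GFA 5xFAD mice and 118, 107, 100 and 106 CPM in SPF 5xFAD mice. It was lower in all 4 GFA libraries (-0.53 ± 0.15, adjusted p = 0.29). Ncstn, which encodes nicastrin of the gamma-secretase complex, was at 360, 384, 376 and 364 CPM in GFA 5xFAD mice and 300, 274, 333 and 328 CPM in SPF 5xFAD mice, the other way and without overlap (0.26 ± 0.08, adjusted p = 0.35). Ece1, the endothelin-converting enzyme, was at 0.57 ± 0.26 with overlapping groups (adjusted p = 0.70). The 23 sterol synthesis genes had a median of 0.24 (0.27 without SPF_FAD_2152), and the 23 of cholesterol export and lipid handling had a median of 0.24 (0.23). The mean log2(CPM + 1) of the sterol synthesis list was 3.39 to 3.68 in GFA 5xFAD mice and 3.16 to 3.30 in SPF 5xFAD mice, without overlap. That of the cholesterol export and lipid handling list was 5.13 to 5.45 in GFA and 4.38 to 5.15 in SPF 5xFAD mice, with overlap. Sc5d, a late enzyme of cholesterol synthesis, was at 36.1, 38.6, 35.8 and 33.1 CPM in GFA 5xFAD mice and 15.5, 23.1, 20.7 and 20.4 CPM in SPF 5xFAD mice (0.86 ± 0.28, adjusted p = 0.38). Mylip, the ubiquitin ligase that removes the LDL receptor, was at 217, 280, 223 and 215 CPM in GFA 5xFAD mice and 303, 334, 334 and 325 CPM in SPF 5xFAD mice (-0.47 ± 0.12, adjusted p = 0.18). Neither Sc5d nor Mylip overlapped between the groups. Nceh1, a cholesterol ester hydrolase, was at a log2 difference of 0.97 ± 0.27 (adjusted p = 0.26), and Scd2, a fatty acid desaturase, at 0.55 ± 0.20 (adjusted p = 0.50). Ribosomal protein genes, as a list of 78, were all above 0 with a median of 0.21, against 70 above 0 and 0.09 without SPF_FAD_2152. In SPF_FAD_2152 all 78 were below every GFA library, as were 63 in SPF_FAD_2153, 12 in SPF_FAD_2140 and 1 in SPF_FAD_2142. Above every GFA library were 26 in SPF_FAD_2142, 1 in SPF_FAD_2140 and 0 in SPF_FAD_2153. The matching shares over all genes tested were not taken, so these counts are descriptions.

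As a list, heat shock genes were lower in GFA mice than in SPF_FAD_2140 and SPF_FAD_2142, and by less than in SPF_FAD_2153. Of 17 heat shock genes 0 were called, with a median log2 difference of -0.61 and 16 of 17 below 0. Without SPF_FAD_2152 the median was -0.74 with 17 of 17 below 0. There 1 was called (Hsp90ab1, lower), beside 0.0177% lower over all genes tested. Hsp90ab1, the constitutive cytosolic chaperone HSP90-beta, was at 506, 466, 419 and 559 CPM in GFA 5xFAD mice and 1417, 1324, 419 and 644 CPM in SPF 5xFAD mice. Libraries SPF_FAD_2140 and SPF_FAD_2142 were the high ones, and SPF_FAD_2152 was at the lower end of the GFA range. The log2 difference was -0.96 ± 0.26 (adjusted p = 0.23), -1.21 ± 0.21 without SPF_FAD_2152 (adjusted p = 0.021) and -0.13 without SPF_FAD_2140 and SPF_FAD_2142 (adjusted p = 1). Hspa1a, an inducible HSP70, was at 1.86, 7.90, 10.8 and 4.27 CPM in GFA 5xFAD mice and 143, 115, 10.3 and 46.9 CPM in SPF 5xFAD mice (-3.65 ± 1.16, adjusted p = 0.38). Dnaja1, an HSP70 co-chaperone, was at 46.5, 41.0, 51.2 and 53.7 CPM in GFA 5xFAD mice and 124, 119, 53.8 and 51.3 CPM in SPF 5xFAD mice (-0.85 ± 0.23, adjusted p = 0.23). Hspa8, the constitutive HSP70, was at 376, 414, 346 and 435 CPM in GFA 5xFAD mice and 1100, 1078, 298 and 416 CPM in SPF 5xFAD mice. Its log2 difference of -0.88 turned to 0.14 without SPF_FAD_2140 and SPF_FAD_2142.

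The mean log2(CPM + 1) of the 17 genes was 5.44, 5.69, 5.63 and 5.66 in GFA 5xFAD mice and 6.83, 6.81, 5.65 and 6.08 in SPF 5xFAD mice. Libraries SPF_FAD_2152 and SPF_FAD_2153 lay within the range of WT SPF mice, 5.56 to 6.26, and SPF_FAD_2140 and SPF_FAD_2142 lay above it. By gene, 14 (SPF_FAD_2140) and 15 (SPF_FAD_2142) of 17 were above every GFA library, against 2 in SPF_FAD_2152 and 8 in SPF_FAD_2153. Shares over all genes tested were not taken for these counts either. With both SPF_FAD_2152 and SPF_FAD_2153 left out, 91 genes were called (0.511% of 17797, with 0.247% higher and 0.264% lower). The heat shock list held 7 of them, all lower in GFA mice: Dnaja1, Dnajb1, Fkbp4, Hsp90aa1, Hsp90ab1, Hspa8 and Hspe1. This setting kept only SPF_FAD_2140 and SPF_FAD_2142, the SPF 5xFAD libraries high on chaperone genes. Its chaperone calls follow from which libraries remained and are no separate evidence. The same setting called 7 of the 23 unfolded protein response genes lower (Creld2, Dnajb11, Ero1b, Hsp90b1, Hspa5, Manf and Pdia6). It also called Ccl12 (log2 -2.004, adjusted p = 0.0022) lower and Sgk1 (1.10, adjusted p = 0.00025) and Fcrls (adjusted p = 0.031) higher.

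Hspe1, the co-chaperonin of mitochondria, was at 37.9, 40.0, 32.2 and 41.0 CPM in GFA 5xFAD mice and 58.0, 74.9, 25.7 and 33.6 CPM in SPF 5xFAD mice, high in SPF_FAD_2140 and SPF_FAD_2142 as the other chaperones were. The 250 bases before its RefSeq start (GRCm38.p6, plus strand, chr1:55087898-55088147) are shown because this window holds a heat shock element, the motif bound by heat shock factors. The motif searched was GAA, TTC and GAA with 2 free bases between each, on both strands, and capitals mark 2 overlapping matches, 1 per strand, that cover 18 bases 72 to 89 bases before the start.
Hspe1: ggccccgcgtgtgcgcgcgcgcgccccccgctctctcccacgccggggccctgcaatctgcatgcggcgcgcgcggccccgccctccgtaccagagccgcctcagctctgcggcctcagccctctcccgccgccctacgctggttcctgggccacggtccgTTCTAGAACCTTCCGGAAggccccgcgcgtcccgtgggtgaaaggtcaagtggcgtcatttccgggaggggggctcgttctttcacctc
Counted per window, the motif was in 0.603% of 32851 windows of all genes. Counted per gene, with any window enough, it was in 4 of the 12 heat shock genes with a window of 300 bases around the start (33.3%). These were Chordc1, Hspd1, Hspe1 and Hsph1, and the shares have unlike units. The motif was not found in the windows of the other 8, which were Bag3, Dnaja1, Dnajb1, Fkbp4, Hspa1a, Hspa1b, Hspa4 and Hspb1. Genes high in SPF_FAD_2140 and SPF_FAD_2142 were thus found with and without it.

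Genes of the unfolded protein response had a median of -0.21 over 23 genes (-0.28 without SPF_FAD_2152), with 19 below 0 and 0 called. Hspa5, the chaperone BiP, was at 1131, 1255, 1128 and 1227 CPM in GFA 5xFAD mice and 2218, 2096, 1103 and 1406 CPM in SPF 5xFAD mice (-0.53 ± 0.16, adjusted p = 0.31; -0.08 without SPF_FAD_2140 and SPF_FAD_2142). Pdia6, a disulphide isomerase, was at 493, 525.02, 427 and 489 CPM in GFA 5xFAD mice and 720, 744, 501 and 559 CPM in SPF 5xFAD mice (-0.38 ± 0.11, adjusted p = 0.29). P4ha1, a collagen prolyl hydroxylase subunit, was at 318, 291, 288 and 292 CPM in GFA 5xFAD mice and 700, 624, 344 and 384 CPM in SPF 5xFAD mice. It had no overlap, and its log2 difference was -0.79 (adjusted p = 0.088) with all libraries and -0.94 ± 0.14 (adjusted p = 0.014) without SPF_FAD_2152. Notch4, a Notch receptor, was at 51.5, 81.5, 77.8 and 34.1 CPM in GFA 5xFAD mice and 14.8, 17.7, 36.6 and 9.44 CPM in SPF 5xFAD mice (1.64 ± 0.37, adjusted p = 0.13; 2.16 and 0.021 without SPF_FAD_2152), and the groups overlapped through SPF_FAD_2152. The 8 markers of endothelial cells, the cells best known for Notch4, summed to 27.9 to 39.9 CPM in GFA 5xFAD mice and 33.01 to 43.2 CPM in SPF 5xFAD mice. In each of these libraries 4 to 5 of the 8 markers were at 0. The part of endothelial cells in the Notch4 difference was not tested. P4ha1 and Notch4 were named after their values were seen.

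**Figure D3:**
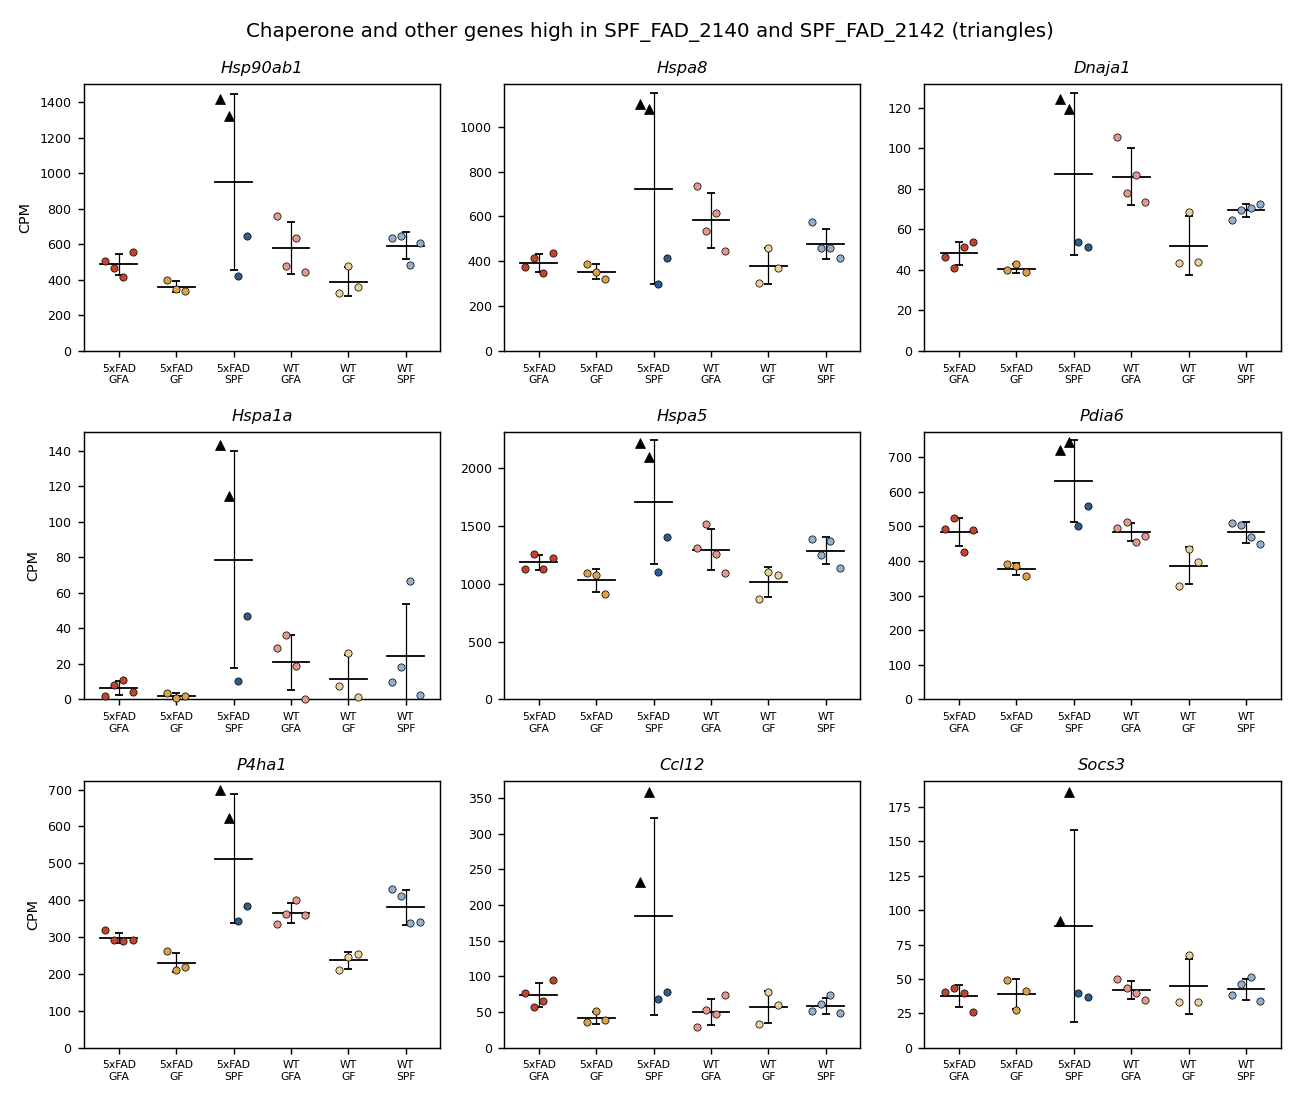
Chaperone genes, P4ha1, Ccl12 and Socs3, in CPM (linear axis) for each hippocampus library, 5xFAD GFA, GF and SPF mice at the left and WT GFA, GF and SPF mice at the right; points are libraries, bars the mean and SD, and triangles are libraries SPF_FAD_2140 and SPF_FAD_2142. The triangles are above every other library in all 9 panels, and SPF_FAD_2153 is also above every GFA library for Hsp90ab1, Hspa1a, Hspa5, Pdia6 and P4ha1.

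The 29 immediate-early genes had a median log2 difference of 0.34 (0.45 without SPF_FAD_2152) and 0 called, with 8 higher and 3 lower at an unadjusted p under 0.05 (3.4% and 3.32% over all genes tested). Their mean log2(CPM + 1) was 5.19, 5.02, 4.98 and 4.92 in GFA 5xFAD mice and 4.74, 5.27, 4.81 and 4.96 in SPF 5xFAD mice. The groups overlapped, and SPF_FAD_2142 was the highest of the 8. In that library 8 of the 29 genes were above every GFA library and 10 below every one. The shares over all genes tested were not taken. Ier2 was at 128, 77.0, 72.2 and 85.4 CPM in GFA 5xFAD mice and 24.2, 46.1, 60.3 and 42.7 CPM in SPF 5xFAD mice (1.07 ± 0.26, adjusted p = 0.15; 1.28 and 0.060 without SPF_FAD_2152). Fos, a subunit of the transcription factor AP-1, was at 97.8, 104, 118 and 109 CPM in GFA 5xFAD mice and 25.5, 44.9, 62.6 and 66.2 CPM in SPF 5xFAD mice (1.10 ± 0.34, adjusted p = 0.35). Neither gene overlapped between the groups, and SPF_FAD_2140 was the lowest SPF library in both. Dusp1, a phosphatase of MAP kinases that glucocorticoids also induce, was at 103, 116, 164 and 118 CPM in GFA 5xFAD mice and 32.9, 53.8, 61.7 and 92.5 CPM in SPF 5xFAD mice (1.05 ± 0.30, adjusted p = 0.28).

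The 24 glucocorticoid-responsive genes had a median of 0.48 (0.39 without SPF_FAD_2152) and 0 called. Sgk1, a kinase induced by glucocorticoids, was at 825, 806, 808 and 688 CPM in GFA 5xFAD mice and 338, 393, 794 and 689 CPM in SPF 5xFAD mice, with SPF_FAD_2140 and SPF_FAD_2142 low and the others near GFA mice (0.50 ± 0.18, adjusted p = 0.51). Nr3c1, the glucocorticoid receptor, was at 202, 221, 251 and 231 CPM in GFA 5xFAD mice and 287, 255, 289 and 302 CPM in SPF 5xFAD mice (-0.33 ± 0.09, adjusted p = 0.28). It did not overlap. The 17 clock genes had a median of -0.08 (-0.16 without SPF_FAD_2152). Per3, a repressor of the clock, was at 20.8, 14.5, 29.5 and 14.8 CPM in GFA 5xFAD mice and 42.8, 40.6, 26.01 and 39.6 CPM in SPF 5xFAD mice (-0.90 ± 0.22, adjusted p = 0.15; -1.04 and 0.060 without SPF_FAD_2152), and Dbp, a clock output, was at -0.89 ± 0.32 (adjusted p = 0.49).

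**Figure D4:**
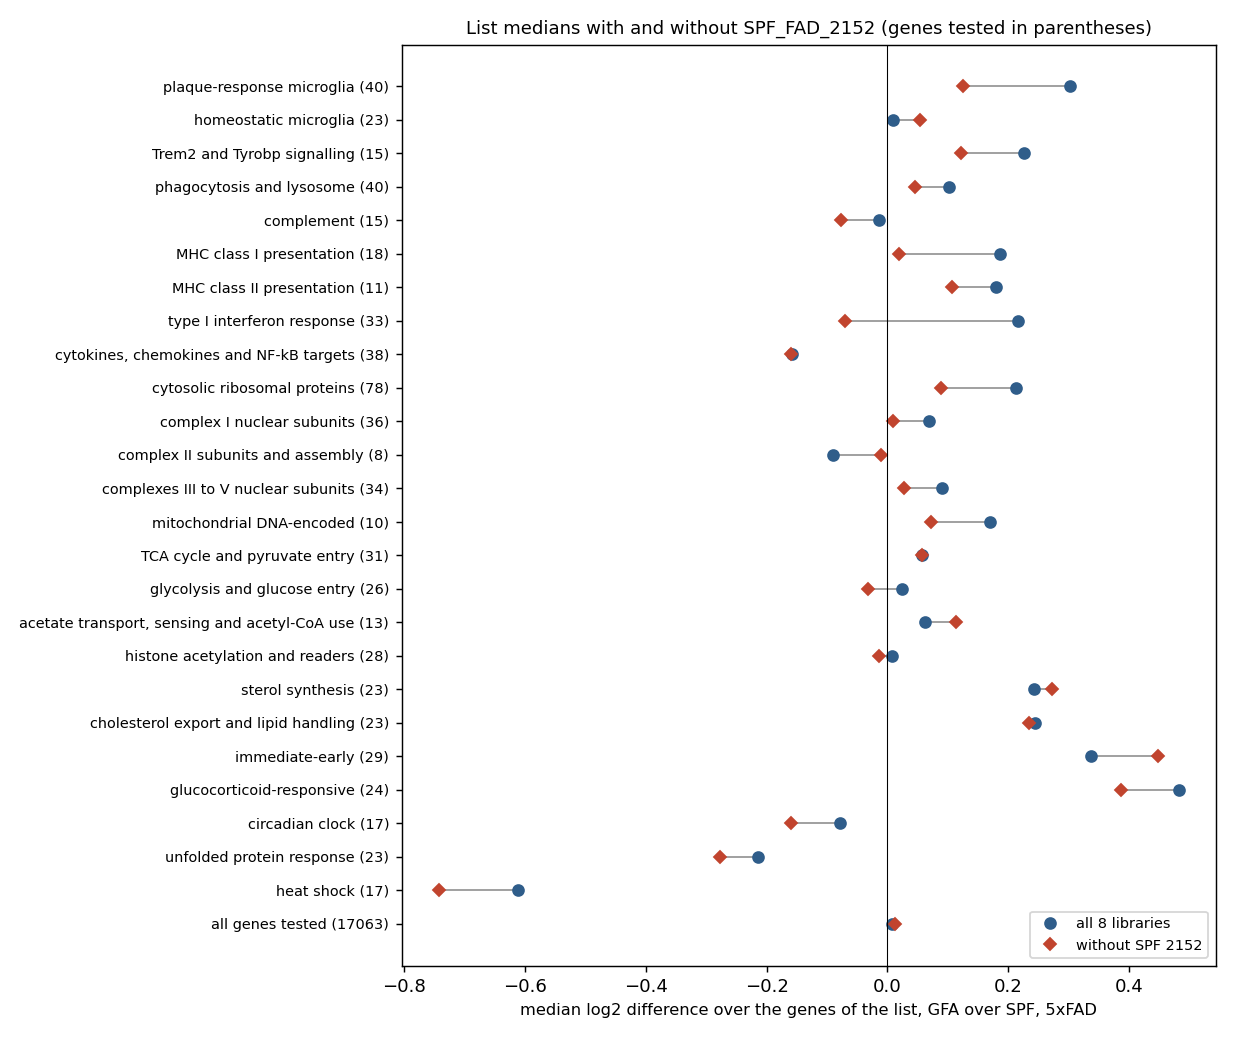
Median log2 difference of GFA over SPF 5xFAD mice for each gene list, with all 8 libraries (circles) and without library SPF_FAD_2152 (diamonds); the horizontal axis is log2 and lists run down the page. Of the lists drawn, heat shock genes have the lowest median (-0.61, and -0.74 without SPF_FAD_2152), and the interferon list changes sign (0.22, and -0.07 without SPF_FAD_2152).

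Acetate alone is asked about by GFA against GF 5xFAD mice, 4 against 3 libraries, which share the GFA libraries with the comparison above. Here 14 genes were called, 3 higher and 11 lower (0.082% of 17063 genes; 0.0176% higher and 0.0645% lower). None of them was among the 9 called against SPF mice, and all 14 separated GFA from GF mice without overlap. They were called on these same libraries, so that separation is no added evidence. Its share over all genes tested was not taken. In 12 of the 14 the GFA libraries overlapped the SPF ones. Most genes did so, as 2.56% of all genes tested were higher and 2.37% lower without overlap. Between GF and SPF mice, where the GF libraries are shared, 12 of the 14 were called, beside 1.82% of all genes tested. The count ran between 2 and 38 when single libraries were left out, with 38 without GFA_FAD_521 and 2 without GFA_FAD_519, GF_FAD_527 or GF_FAD_531. The genes were named after their values were seen.

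Olfml3, a secreted protein of resting microglia and the single called gene of the homeostatic list, was at 2946, 2642, 2271 and 2595 CPM in GFA 5xFAD mice, 1743, 1592 and 1645 CPM in GF 5xFAD mice and 2746, 2717, 2878 and 2901 CPM in SPF 5xFAD mice. GFA mice were above GF mice by 0.65 ± 0.10 on the log2 scale (adjusted p = 0.0089) and overlapped SPF mice. Marcks, an actin-binding substrate of protein kinase C, was at 1161, 1202, 1194 and 1371 CPM in GFA 5xFAD mice, 895, 877 and 855 CPM in GF mice and 1347, 1187, 1513 and 1339 CPM in SPF mice (GFA over GF 0.49, adjusted p = 0.043).

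Ppp1r21, a regulatory subunit of protein phosphatase 1, fell by 1.29 ± 0.16 on the log2 scale (adjusted p = 0.00053). It was at 86.6, 126, 137 and 99.6 CPM in GFA 5xFAD mice, 233, 270 and 319 CPM in GF mice and 113, 120, 103 and 103 CPM in SPF mice, so GFA mice lay around the SPF values. Gpd1, the glycerol-3-phosphate dehydrogenase of the cytosol, was at 21.1, 20.9, 23.8 and 16.2 CPM in GFA 5xFAD mice, 60.6, 64.8 and 63.4 CPM in GF mice and 8.75, 9.23, 15.2 and 7.76 CPM in SPF mice. It fell by 1.62 ± 0.26 against GF mice (adjusted p = 0.0089) and stayed above every SPF library. Chka, choline kinase, was at 78.2, 79.3, 90.6 and 70.7 CPM in GFA 5xFAD mice, 160, 163 and 170 CPM in GF mice and 73.2, 88.0, 72.7 and 71.0 CPM in SPF mice (log2 -1.04). The other genes lower in GFA than in GF mice were Rnf169 (-1.26), Klf13 (-1.15), Lifr (-1.14), Rcan1 (-1.04), Rbm26 (-0.90), Filip1l (-0.87), Pik3r1 (-0.67) and Irf2 (-0.58).

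The glucocorticoid-responsive list had a median log2 difference of -1.05 between GFA and GF 5xFAD mice, beside 0.01 over all genes tested, with 0 of its 24 genes called. Fkbp5, a chaperone that glucocorticoids induce, was at 185, 307, 333 and 111 CPM in GFA 5xFAD mice, 788, 955 and 1057 CPM in GF mice and 158, 307, 124 and 98.7 CPM in SPF mice. GFA and GF mice did not overlap, and the log2 difference was -1.998 (adjusted p = 0.19). The plaque-response list had a median of 0.33 between GFA and GF mice with 0 called, and the interferon list one of 0.59 with 0 called. Complex II was again near 0, with a median of 0.05.

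**Figure D5:**
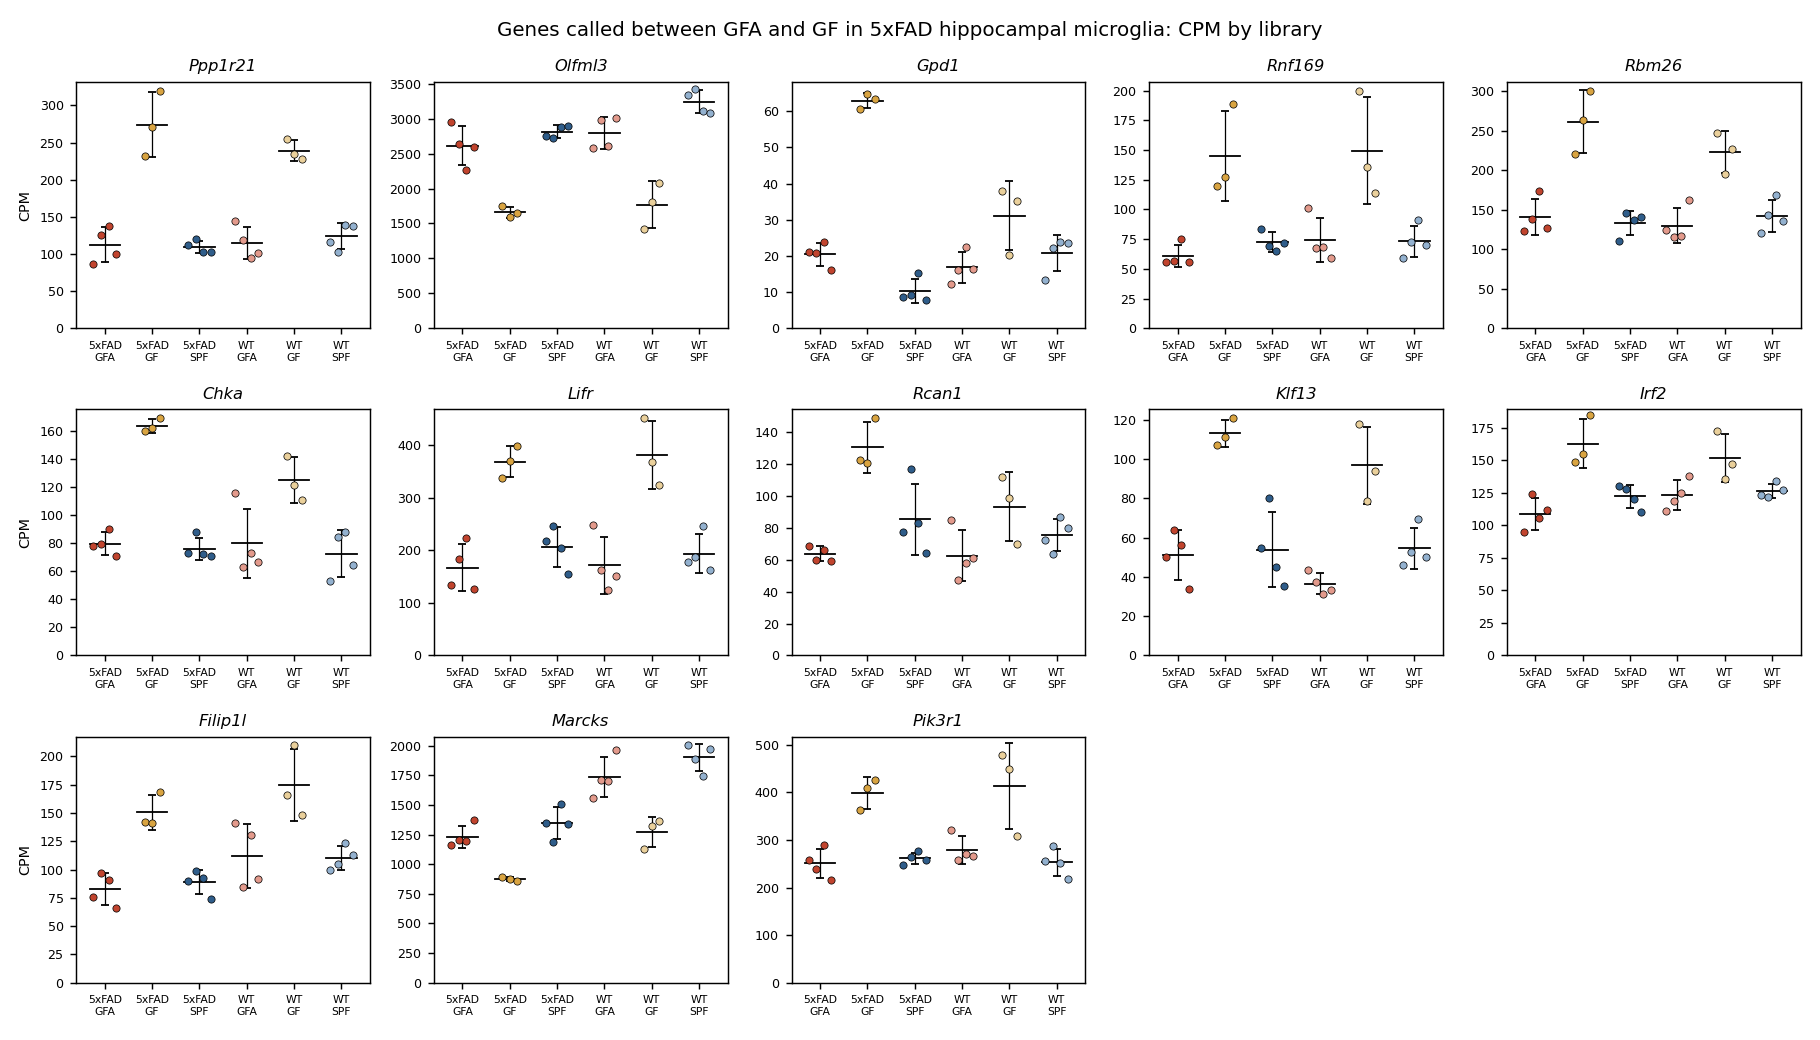
13 of the 14 genes called between GFA and GF 5xFAD mice, in CPM (linear axis) for each hippocampus library, 5xFAD GFA, GF and SPF mice at the left and WT GFA, GF and SPF mice at the right; points are libraries, bars the mean and SD. GF libraries stand apart from GFA libraries in all 13 panels, whose genes were called on these same libraries. In 12 of the panels the GFA libraries overlap the SPF libraries. Most genes overlap in this way, as 2.56% of all genes tested were higher and 2.37% lower in GFA than in SPF 5xFAD mice without overlap.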

How the data were processed

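RNA-seq libraries of sorted microglia were used as gene counts deposited by the authors, who per the submitters' processing notes aligned reads with STAR 2.5.2b and counted them with featureCounts 1.5.1. Those notes list the human build GRCh38 although the table holds mouse symbols; coordinates of counted genes are therefore not printed. Promoter windows are RefSeq's on GRCm38.p6, and gene order is that of GENCODE M21. All 22 hippocampus libraries, in 6 groups, were fitted together with edgeR 4.0.16 in R 4.3.3 (filterByExpr with a minimum count of 10, TMM scaling, robust quasi-likelihood test); genes with a Benjamini-Hochberg adjusted p under 0.05 over all genes tested are called. Values are TMM-scaled CPM, and errors of log2 differences are standard errors. Counts of 0 were bounded with 3 counts per library; intervals and bounds cover counting error only. Alternatives used DESeq2 1.42.0, limma 3.58.1 (voom with sample weights), other scalings and filters, and left-out libraries. The 12 pairs of libraries within 5xFAD GFA and SPF groups differed by more than sampling noise (chi-square per degree of freedom 17.4 to 44.4). Named genes were up to 10 per direction with the largest called change at a mean of at least 5 CPM, up to 4 of each list with the smallest p, and a set of microglial, amyloid and acetate genes; others are said to be named later. 1 of the genes called between GFA and GF 5xFAD mice is counted but not reported by name here. The comparison, lists and rule were chosen with earlier results of these data known. The settings that leave out SPF_FAD_2140 and SPF_FAD_2142, or that join SPF_FAD_2152's removal with DESeq2 or voom, were added after the data were seen.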

Additional observations from a re-analysis of the deposited data

Results flagged for a closer look

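A sample stood far from the rest of its group, by its gap to the nearest other sample relative to the group's whole range, in 22 of 360 gene or list groups of 4 libraries; chance gives about 1 in 20. Library SPF_FAD_2152 accounted for 8 of them. It was low for Cst7 (13.3 CPM, against 376 to 513 in the other SPF 5xFAD libraries), Clec7a (24.1 CPM, against 149 to 201), Igf1 (3.97 CPM, against 36.7 to 53.0), Itgax (9.12 CPM, against 47.1 to 59.6) and Per3 (26.01 CPM, against 39.6 to 42.8), and for the cholesterol export and lipid list (mean log2(CPM + 1) 4.38, against 5.04 to 5.15). It was high for Ston1 (1.25 CPM, against 0.479 to 0.532) and for erythroid markers (mean log2(CPM + 1) 0.54, against 0.12 to 0.18). The first 4 of these genes are plaque-response genes, for which the same library lay among WT mice. SPF_FAD_2152 was set apart beforehand for values near WT on plaque-response genes, so these 4 flags are no separate evidence.

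Library SPF_FAD_2153 was high for neutrophil markers (mean log2(CPM + 1) 3.30, against 0.67 to 0.69), for Fasn, fatty acid synthase (44.1 CPM, against 29.6 to 31.7), and for Mvk, mevalonate kinase (7.52 CPM, against 5.08 to 5.32). Library SPF_FAD_2142, the shallowest, was low for Nnt (49.9 CPM, against 67.7 to 71.8) and high for Cd59a (0.532 CPM, against 0), which is the floor of 3 counts in that library.

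Among GFA 5xFAD mice, library GFA_FAD_519 was high for Fasn (59.2 CPM, against 42.3 to 42.8) and low for mt-Nd5 (335 CPM, against 408 to 423) and Soat1, which esterifies cholesterol (104 CPM, against 128 to 129). Library GFA_FAD_520 was high for Mylip (280 CPM, against 215 to 223). Library GFA_FAD_521 was low for Sdhaf3, an assembly factor of complex II (5.92 CPM, against 10.2 to 11.002), and for the cytokine list (mean log2(CPM + 1) 4.86, against 5.05 to 5.09). Library GFA_FAD_522 was low for Sgk1 (688 CPM, against 806 to 825) and high for the sterol synthesis list (3.68, against 3.39 to 3.44) and for Thy1 (0.107 CPM, against 0).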

How the results depend on the processing

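The count of 9 genes between GFA and SPF 5xFAD mice was 94 by DESeq2, 22 by limma voom, 5 where the mean reached 5 CPM, and 2 when only these groups were fitted; it was 8 with RLE size factors and 7 unfiltered. Leaving out single libraries gave 1 to 10 genes, with 1 without GFA_FAD_519 and 1 without SPF_FAD_2140. It was 91 without SPF_FAD_2152 and SPF_FAD_2153. In settings added after the data were seen it was 164 (DESeq2) and 86 (voom) without SPF_FAD_2152, and 1 without SPF_FAD_2140 and SPF_FAD_2142. The interaction count of 0 was 25 by DESeq2, 0 by voom and 24 without SPF_FAD_2152 and SPF_FAD_2153, and 0 to 1 over single libraries left out, with 1 without GFA_WT_523. The 14 genes between GFA and GF 5xFAD mice were 153 by DESeq2, 185 by voom, 30 unfiltered, 46 where the mean reached 5 CPM, 121 when only these groups were fitted, and 2 to 38 over single libraries left out (38 without GFA_FAD_521, 8 without GF_FAD_526, 4 without GFA_FAD_520, 3 without GFA_FAD_522, and 2 without GFA_FAD_519, GF_FAD_527 or GF_FAD_531). The causes of these moves were not tested, beyond the fewer samples or genes that some settings use. Over 136 named genes and 2440 comparisons with a setting, 2326 kept their side of the threshold, 56 lost a call, 58 gained one and 0 reversed while called; the sign changed in 33, 0 of them for a gene called with all libraries. Of the called genes, Ugt1a8 lost its call in 1 of 17 settings, Gpr137b in 3 of 18, Arl4c in 4 of 18, Glrp1 in 5 of 18, Gm4742 in 6 of 17, Stk25 in 7 of 18, Tmem181c-ps in 8 of 16, Serpine2 in 10 of 18 and Tmem181b-ps in 12 of 18. No paired analysis was possible because the groups compared share no replicate numbers. Depth limits the low features: in SPF_FAD_2142, 3 counts are 0.532 CPM, so lower levels, as some GFA libraries had for Tmem181c-ps and Ugt1a9, could not be told from 0 there.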
